A study of Mus musculus with 6 samples.

Results

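Chemokines and chemokine receptors were followed in mouse ileum (the distal small intestine, taken whole) as the genes whose symbols begin with Ccl, Cxcl, Ccr or Cxcr and a digit, with Cx3cl1, Cx3cr1, Xcl1, Xcr1 and Pf4 added. The rule found 53 of 19938 measured genes: 19 CC ligands, 16 CXC, C and CX3C ligands, and 18 receptors. A further 6 symbols, those of the Ccl21 and Ccl27 copies, share 7 probe sets with other genes and were not analysed here. Of the 53 genes, 24 read above the median of all probe sets on each of the 6 arrays, 19 read below it on each, and 10 crossed it. RNA came from 3 control mice, which carried Villin-CreERT2 alone, and 3 mice that carried Villin-CreERT2 and GATA6 flox/flox. Both groups received tamoxifen on 5 consecutive days at 6 to 8 weeks of age, and the ileum was taken 28 days later, at 10 to 12 weeks. Villin-CreERT2 is a tamoxifen-dependent Cre recombinase under a promoter active in intestinal epithelium, so muscle, stroma and immune cells of the sample are not its target.

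Chemokines are small secreted proteins that bind G protein-coupled receptors on leukocytes and set the direction in which those cells migrate. Epithelium of the small intestine is known as the main source of Ccl25 outside the thymus, and its receptor Ccr9 marks lymphocytes that home to this tissue. Ccl28, another epithelial chemokine, attracts plasma cells through Ccr10, and interferon induces the Cxcr3 ligands Cxcl9, Cxcl10 and Cxcl11.

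The targeted gene was read first. Gata6, a zinc finger transcription factor, had log2 signals of 6.31, 6.33 and 6.50 in controls. In the arrays labelled GATA6 KO (KO-labelled from here on) they were 6.94, 6.81 and 6.86. It was thus higher, not lower, by 0.49 on the log2 scale (standard error, SE, 0.08; limma adjusted p = 0.0162), and directions here are those of the arrays labelled GATA6 KO. That call was lost without Control replicate 1 (0.0501) and without GATA6 KO replicates 1, 2 or 3 (0.0584, 0.0573 and 0.0623), and without moderation of the variance across genes (0.0695). The position of its probe set within the gene is not known here, so these readings need not cover the deleted sequence and may check nothing. Control replicate 3 read 2.31 for Xist against 7.39 to 7.81 on the other 5 arrays, and 5.30 for the Y-linked Eif2s3y against 0.27 to 0.61, signals of a male among females. Correlations between arrays were 0.987 to 0.992 within a group and 0.980 to 0.984 across groups.

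Of the 53 genes, Ccl25 alone passed the test, and it fell. That is 1.89% of the members, against 8.24% of all genes called in either direction and 3.25% called lower, at a limma adjusted p under 0.05. None passed as higher, against 4.99% of all genes. At an unadjusted p under 0.05 there were 9 members, 5 lower and 4 higher, or 17.0% against 24.7% of all genes. The median log2 fold change over the members was -0.04, beside -0.00433 over all genes, and 30 of 53 lay below 0. The remaining 52 members ran from -0.60 (Cxcl9) to 0.77 (Cxcl5).

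**Figure D1:**
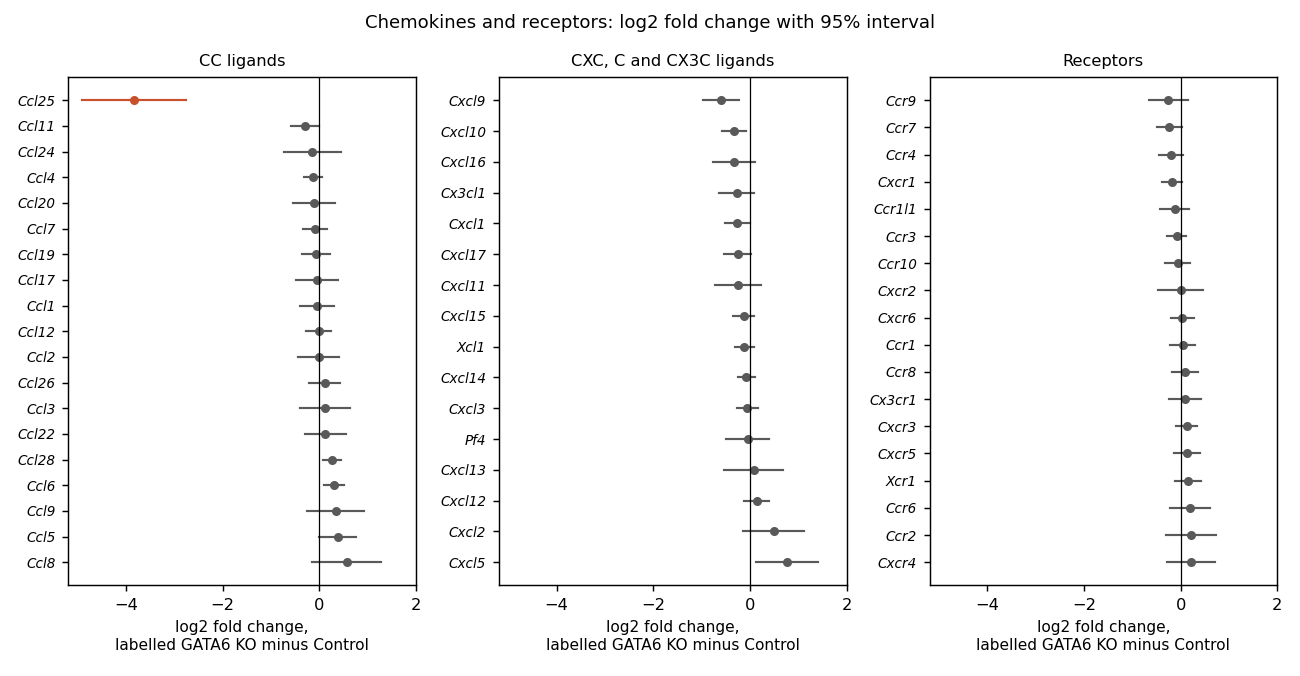
Log2 fold change of each of the 53 chemokine and receptor genes (x axis, arrays labelled GATA6 KO minus Control, 3 arrays each) with its 95% interval from the limma fit, in 3 panels by role; the gene that passed is in red. Ccl25 at -3.84 lies apart from the others, which run from -0.60 to 0.77.

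Ccl25 recruits Ccr9-bearing lymphocytes and their precursors. Its log2 signal was 9.62, 9.69 and 9.98 in controls and 5.04, 5.66 and 7.08 in KO-labelled arrays. Every control lay above every KO-labelled array, and the lowest control exceeded the highest KO-labelled array by 2.54 on the log2 scale, or 5.83-fold. The group means were 9.76 ± 0.19 and 5.93 ± 1.04 (SD, n = 3), so Ccl25 fell by 3.84 on the log2 scale (SE 0.46, 95% interval -4.92 to -2.76), 14.3-fold, with a limma adjusted p of 0.00420. Only 4 of the 19938 genes had a larger decrease. The KO-labelled arrays themselves differed by 2.04, or 4.10-fold, with replicate 1 lowest and replicate 3 highest. An SD that large among KO-labelled arrays was rare, since 99.9% of all genes had a smaller one. All 6 values stayed above the median of their array. In whole tissue, fewer cells of a type and less RNA per cell cannot be told apart.

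The call held in each fit that left out 1 array, with log2 fold changes of -4.41 to -3.40. Without Control replicate 3, the array with male signals, the value was -3.73 (limma adjusted p = 0.0292). Without moderation the limma adjusted p was 0.0812, and the call was lost.

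The array carries a second, dimmer probe set for Ccl25. It read 3.77, 3.96 and 3.71 in controls and 3.63, 3.71 and 3.62 in KO-labelled arrays. The groups overlapped, and the log2 fold change was -0.16 (SE 0.09, limma adjusted p = 0.414 over all probe sets). In that fit over all 35557 probe sets, of which 2.52% passed, the brighter one had an adjusted p of 0.0226. The platform table ties the brighter probe set to 1 coding and 1 non-coding RefSeq transcript, and the dimmer to 1 non-coding and 0 coding ones. Whether both probe sets share the same non-coding transcript was not compared. With the mean of both in place of the brighter, the log2 fold change was -2.00 (limma adjusted p = 0.00375).

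**Figure D2:**
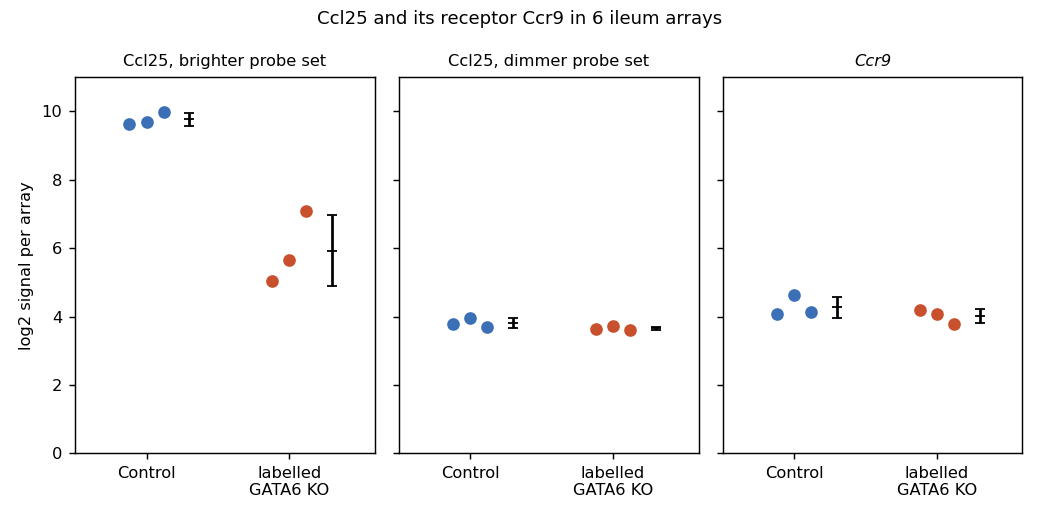
Log2 signal per array (y axis) of the brighter and the dimmer Ccl25 probe set and of Ccr9 in 3 Control arrays (blue) and 3 arrays labelled GATA6 KO (red); bars give the mean and SD. The brighter Ccl25 probe set dropped from 9.62 to 9.98 in controls to 5.04 to 7.08, while the other panels overlap between groups.

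RefSeq lists a pair of start sites for Ccl25 on the plus strand of chromosome 8, 24378 bases apart. The 250 bases before each are shown to give the sequence context of the member that fell; promoter activity was not measured. Capitals mark the letters TTTAT on either strand, the core of sites for caudal-type homeobox factors of the intestine. On the opposite strand these letters read ATAAA, which is also part of the TATA box letters TATAAA. The upstream window lies at chr8:4324960-4325209 and the downstream one at chr8:4349338-4349587 (GRCm38.p6, plus strand).
Ccl25 upstream start: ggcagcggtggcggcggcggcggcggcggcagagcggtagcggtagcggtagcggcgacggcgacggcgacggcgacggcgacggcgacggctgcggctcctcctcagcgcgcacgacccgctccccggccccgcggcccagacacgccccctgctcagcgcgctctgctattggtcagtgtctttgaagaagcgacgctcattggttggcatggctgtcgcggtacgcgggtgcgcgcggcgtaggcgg
Ccl25 downstream start: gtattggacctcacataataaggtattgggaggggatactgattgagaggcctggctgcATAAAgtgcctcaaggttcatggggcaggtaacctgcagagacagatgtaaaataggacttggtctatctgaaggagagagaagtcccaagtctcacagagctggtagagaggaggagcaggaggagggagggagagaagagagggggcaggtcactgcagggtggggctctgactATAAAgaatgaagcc
The upstream window is 74.8% G and C with 45 CG pairs, richer than 95.8% of the promoters in the table. The downstream window is 51.6% G and C, near the median of 52.4%, and has 0 CG pairs. It holds TTTAT on the minus strand at 2 places, which begin 191 and 15 bases before the start. The place at 15 bases lies within TATAAA. Counts of TTTAT do not tell these 2 kinds of site apart. TTTAT occurs in 37.3% of all 32851 windows of this length, on either strand, and in 25 of the 41 windows of the 39 members in the table, most of them members that did not pass. The letters GATAA, 1 form of the core read by GATA factors, are in neither Ccl25 window on either strand, and are in 22.6% of all windows. The related form GATAG was not searched for. The downstream window holds it on the minus strand (printed as ctatc), so the absence of GATAA is not the absence of a GATA core. The letters GATAA occur in 11 of the 41 member windows. A match is a description of letters and does not show binding, and no match says only that these letters are not in these windows.

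Ccr9, the receptor of Ccl25, read 4.06, 4.62 and 4.14 in controls and 4.19, 4.08 and 3.77 in KO-labelled arrays. The groups overlapped, and Ccr9 did not pass, with a log2 fold change of -0.26 (SE 0.17, 95% interval -0.66 to 0.15, limma adjusted p = 0.402). That interval leaves room for a decrease of the receptor. Its control mean of 4.27 was not far above the control array medians of 3.41 to 3.44. A 2-fold fall of this signal lay outside the interval. How much of the signal is background is not known here. A fall of the RNA could thus be larger than the signal shows, and the 2 changes cannot be compared in size. Levels of cells that carry Ccr9 stood beside these values. Of 12 markers of intraepithelial lymphocytes, the members Ccl5 and Xcl1 among them, none passed, with 7 values positive and 5 negative. At an unadjusted p under 0.05 there were 4 (Ctsw, Itgae, Nkg7 and Ccl5), all higher, against 24.7% of all genes. The mean of the 12 was 4.001 to 4.26 in controls and 4.13 to 4.47 in KO-labelled arrays. Of 12 T cell markers none passed (2 at an unadjusted p under 0.05), at 3.80 to 3.93 and 3.88 to 4.07. Of 10 epithelial markers, which bear on the source of Ccl25, Krt19 was higher and Vil1 lower, by 0.33 and 0.41 on the log2 scale. Over all genes 4.99% were called higher and 3.25% lower. The mean of the 10 markers was 9.32 to 9.50 in controls and 9.40 to 9.49 in KO-labelled arrays. Krt19 lost its call in each of the 6 fits that left out 1 array (limma adjusted p 0.0704 to 0.135), and Vil1 without Control replicate 3 or GATA6 KO replicates 1, 2 or 3 (0.0607 to 0.0954). The part of these cells in the values of Ccl25 and Ccr9 was not tested.

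Among 10 chemokines known from gut epithelium, Ccl25 was again the gene that passed, and none passed as higher. At an unadjusted p under 0.05 there were 5, against 24.7% of all genes, and their directions were mixed. Ccl25 and Cxcl1 were lower, and Ccl6, Ccl28 and Cxcl5 higher. The other 9 had log2 fold changes of -0.33 to 0.77. Ccl28 read 7.18, 7.19 and 7.12 in controls and 7.49, 7.32 and 7.48 in KO-labelled arrays. Each KO-labelled array was above each control, the opposite side from Ccl25, at a log2 fold change of 0.27 (SE 0.08), which did not pass (limma adjusted p = 0.0907). It passed, narrowly, once dim genes were left out (0.0494). Its receptor Ccr10 lay at -0.06 (SE 0.11) with overlapping groups. Of 7 plasma cell markers none passed (0 at an unadjusted p under 0.05), with means of 6.12 to 6.36 in controls and 6.13 to 6.27 in KO-labelled arrays.

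Ccl6, a CC ligand of Ccr1, read 8.46, 8.54 and 8.71 in controls and 8.93, 8.87 and 8.86 in KO-labelled arrays. The groups did not overlap, and the log2 fold change of 0.31 (SE 0.09) did not pass (limma adjusted p = 0.0766). It passed in 3 of 16 alternatives. Its neighbour Ccl9, also a Ccr1 ligand, lay at 0.34 (SE 0.25) with overlapping groups. Ccr1 itself lay at 0.04 (SE 0.11) and below the array medians on each array.

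Ccl20, made by the epithelium over lymphoid follicles, read 4.07, 3.44 and 4.14 in controls and 3.66, 3.91 and 3.78 in KO-labelled arrays. The KO-labelled values lay inside the range of the controls (log2 fold change -0.10, SE 0.19, limma adjusted p = 0.777). Its receptor Ccr6 lay at 0.20 (SE 0.18), below the array medians throughout. The membrane-bound pair Cx3cl1 and Cxcl16 had values of -0.28 (SE 0.15) and -0.33 (SE 0.19), with limma adjusted p of 0.310 and 0.333. Their receptors Cx3cr1, of resident macrophages, and Cxcr6, of tissue lymphocytes, lay at 0.09 (SE 0.14) and 0.04 (SE 0.10). Cxcl14, a constitutive epithelial chemokine, read 5.40 to 5.47 in controls and 5.28 to 5.41 in KO-labelled arrays, which overlapped.

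**Figure D3:**
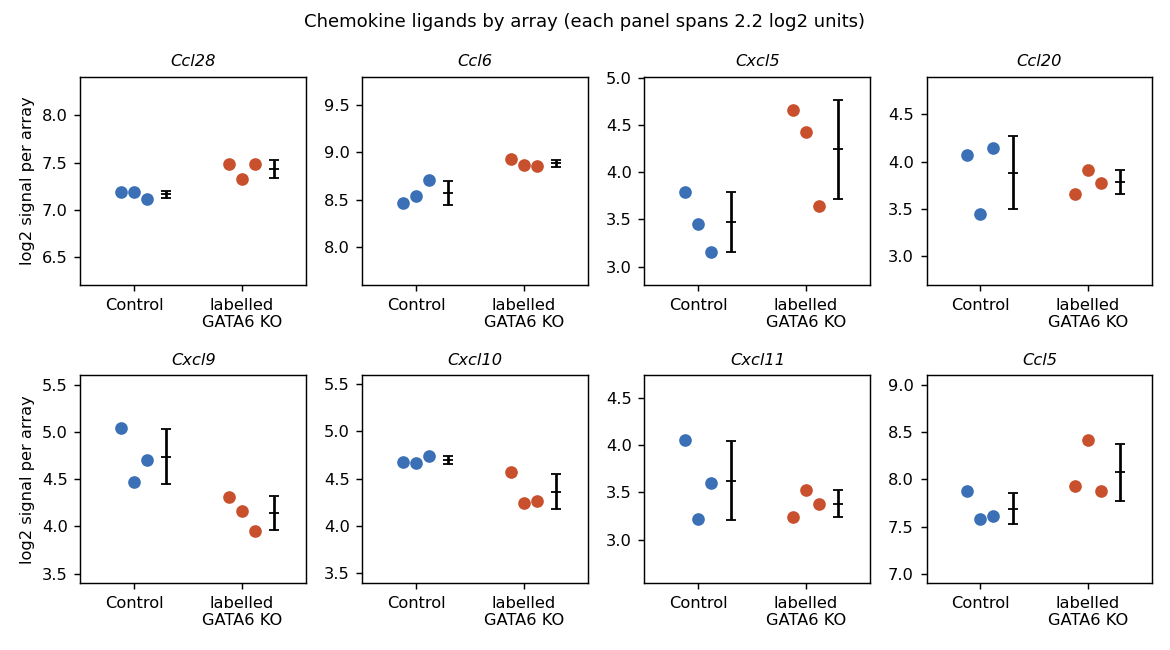
Log2 signal per array (y axis, 2.2 units in each panel) of 8 chemokine ligands in 3 Control arrays (blue) and 3 arrays labelled GATA6 KO (red); bars give the mean and SD. Ccl28, Ccl6, Cxcl9 and Cxcl10 do not overlap between groups, the other 4 do, and none of the 8 passed the test.

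Cxcl9, Cxcl10 and Cxcl11 attract Cxcr3-bearing T cells and are induced by interferon. Cxcl9 read 5.04, 4.47 and 4.71 in controls and 4.31, 4.16 and 3.95 in KO-labelled arrays. All KO-labelled values lay below all controls, by a log2 fold change of -0.60 (SE 0.16), but the limma adjusted p of 0.0675 did not pass. Cxcl9 was the member closest to the threshold after Ccl25: it passed in 7 of 16 alternatives (limma adjusted p 0.0335 to 0.0476), among them the fit without Control replicate 2 (0.0465).

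Cxcl10 read 4.68, 4.67 and 4.74 in controls and 4.57, 4.24 and 4.27 in KO-labelled arrays. Again the groups did not overlap, and the log2 fold change of -0.33 (SE 0.10) did not pass (limma adjusted p = 0.104). Without GATA6 KO replicate 1, the highest of its group, it passed at -0.44 (0.0391). Cxcl11 read 4.06, 3.22 and 3.60 in controls and 3.24, 3.53 and 3.38 in KO-labelled arrays, so the groups overlapped (-0.24, SE 0.20, limma adjusted p = 0.507). Their receptor Cxcr3 lay at 0.12 (SE 0.09, limma adjusted p = 0.446). Of the 8 members on the interferon list none passed, 3 had an unadjusted p under 0.05 (Cxcl9, Cxcl10 and Ccl5), and the median was -0.05.

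Ccl5, a product of cytotoxic lymphocytes that also stood on that list, lay on the other side of 0. It read 7.88, 7.58 and 7.62 in controls and 7.93, 8.42 and 7.88 in KO-labelled arrays. Control replicate 1 was just above the lowest KO-labelled array, and the log2 fold change of 0.38 (SE 0.16) did not pass (limma adjusted p = 0.197). Among 12 intraepithelial lymphocyte markers, none of which passed, 7 had positive and 5 negative log2 fold changes, from -0.30 to 0.45 with a median of 0.09; Ccl5 is itself 1 of the 12 genes on that marker list, and the part of these cells in its value was not tested. Xcl1, a lymphocyte product that draws cross-presenting dendritic cells, and its receptor Xcr1 lay at -0.12 (SE 0.08) and 0.15 (SE 0.11). Xcl1 is also on that marker list.

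Chemokines that organise lymphoid tissue showed no gene past the test. Of 8 measured members on that list, 0 also had an unadjusted p under 0.05, and the median log2 fold change was 0.10. Cxcl13, which draws B cells into follicles, read 5.27, 5.48 and 4.44 in controls and 5.39, 5.01 and 5.03 in KO-labelled arrays. Control replicate 3 was the lowest array, and the log2 fold change moved from 0.08 (SE 0.26) to -0.23 without it. Its receptor Cxcr5 read below the array medians on each array, at 0.13 (SE 0.11). Ccl19, which guides Ccr7-bearing T cells and dendritic cells, lay at -0.07 (SE 0.12). It has 5 probe sets with values of -0.10 to -0.03, 2 of them identical on each array, so near-identical copies of the gene may share them. Ccr7 lay at -0.23 (SE 0.11, limma adjusted p = 0.233), the smallest p among the 18 receptors.

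Cxcl12, a stromal chemokine, read 5.29, 5.26 and 5.05 in controls and 5.48, 5.36 and 5.17 in KO-labelled arrays (log2 fold change 0.14, SE 0.11, limma adjusted p = 0.488). Its receptor Cxcr4 lay at 0.21 (SE 0.21). Of 11 B cell markers none passed (0 at an unadjusted p under 0.05), 6 were below the array medians on each array, and their mean was 2.94 to 2.98 in controls and 2.86 to 3.09 in KO-labelled arrays. Of 10 markers of lymphoid stroma and follicle epithelium, the member Ccl20 among them, 2 rose, Anxa5 and Pdpn, beside 4.99% of all genes called higher. Their log2 fold changes ran from -0.29 to 0.94, with 7 positive and 3 negative. The means of the 10 were 4.50 to 4.79 in controls and 4.74 to 4.98 in KO-labelled arrays. Anxa5 lost the call without GATA6 KO replicates 1 or 2 (limma adjusted p 0.0564 and 0.0700), and Pdpn in 5 of the 6 fits without 1 array (0.0719 to 0.159). Their part in these values was not tested.

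Neutrophil chemokines did not move together. Cxcl5 read 3.79, 3.46 and 3.16 in controls and 4.65, 4.42 and 3.65 in KO-labelled arrays. GATA6 KO replicate 3 lay within the controls, and the log2 fold change of 0.77 (SE 0.27) did not pass (limma adjusted p = 0.139). Cxcl2, chosen after its values were seen, read 2.08, 1.86 and 2.05 in controls and 2.87, 2.79 and 1.81 in KO-labelled arrays, below the array medians throughout (0.49, SE 0.27, limma adjusted p = 0.307). In both genes GATA6 KO replicate 3 stood apart from its group: without it Cxcl5 passed at 1.07 (0.0437) and Cxcl2 at 0.84 (0.0141).

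Cxcl1 lay on the other side, at 4.14, 4.17 and 4.42 in controls and 3.91, 4.14 and 3.90 in KO-labelled arrays. The groups just missed overlapping, and the log2 fold change of -0.26 (SE 0.11) did not pass (limma adjusted p = 0.199). The receptor of all of these, Cxcr2, had a mean of 1.43 in both groups, below the array medians on each array. All 10 neutrophil markers also read below the array medians on each array, with means of 2.14 to 2.37 in controls and 2.16 to 2.46 in KO-labelled arrays. Among them Ly6g and Retnlg were higher and Ltf lower, beside 4.99% of all genes called higher and 3.25% lower. Each changed by under 1 on the log2 scale and lost the call in 4 or more of the 6 fits without 1 array. Their part in the values of Cxcl5 and Cxcl2 was not tested.

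Chemokines of monocytes and eosinophils also held no gene past the test: of 13 measured, 1 had an unadjusted p under 0.05, and the median log2 fold change was -0.01. That 1 was Ccl11, which draws eosinophils through Ccr3. It read 5.74, 5.61 and 5.30 in controls and 5.27, 5.32 and 5.18 in KO-labelled arrays. Control replicate 3 overlapped the KO-labelled arrays (log2 fold change -0.29, SE 0.12, limma adjusted p = 0.193). Ccr3 lay at -0.08 (SE 0.09), below the array medians. Ccl8, a CC ligand described here after its values were seen, had the largest positive value of the list at 0.57, with a wide interval of -0.15 to 1.28. Ccl2 and Ccl12, ligands of Ccr2, lay at -0.01 each, and Ccr2 at 0.21 (SE 0.22).

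Of 15 macrophage and dendritic cell markers none passed (1 at an unadjusted p under 0.05), with means of 5.28 to 5.76 in controls and 5.40 to 5.99 in KO-labelled arrays. Of 10 eosinophil and mast cell markers, 8 below the array medians on each array, Kit rose, and the means were 2.12 to 2.17 and 2.25 to 2.41. Over all genes 4.99% were called higher. Kit lost the call without GATA6 KO replicate 2 (limma adjusted p = 0.0586). It also marks the pacemaker cells of gut muscle. Of 10 smooth muscle and fibroblast markers Tagln rose, 7 had an unadjusted p under 0.05 against 24.7% of all genes, and 6 had no overlap between groups, beside 29.3% over all genes. All 10 had positive values, with means of 8.47 to 8.74 and 8.84 to 9.08. Tagln lost the call without Control replicates 1 or 3 or GATA6 KO replicates 2 or 3 (limma adjusted p 0.111 to 0.142). Of 9 endothelial markers none passed (1 at an unadjusted p under 0.05), with means of 4.44 to 4.58 and 4.60 to 4.65. The part of these cells in the values of the chemokines was not tested.

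The receptors as a group differed little between the arrays. Of 18, none passed and 0 had an unadjusted p under 0.05. The groups overlapped in all 18, while they did not overlap in 29.3% of all genes. Log2 fold changes ran from -0.26 (Ccr9) to 0.21 (Cxcr4), with a median of 0.04. The 95% intervals of all 18 lay between -0.66 and 0.73, so a 2-fold change of any receptor lay outside its interval. Low signal limits this: 9 of the 18 read below the array medians on each array, where a change of RNA can be lost in background. Among the 35 ligands the groups did not overlap in 7. Of these, Ccl25, Cxcl9, Cxcl10, Cxcl1 and Ccl4 were lower (12.6% of all genes were of this kind) and Ccl28 and Ccl6 higher (16.8%). Ccl4, a ligand of lymphocytes and monocytes, lay at -0.13 (SE 0.08) and below the array medians.

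**Figure D4:**
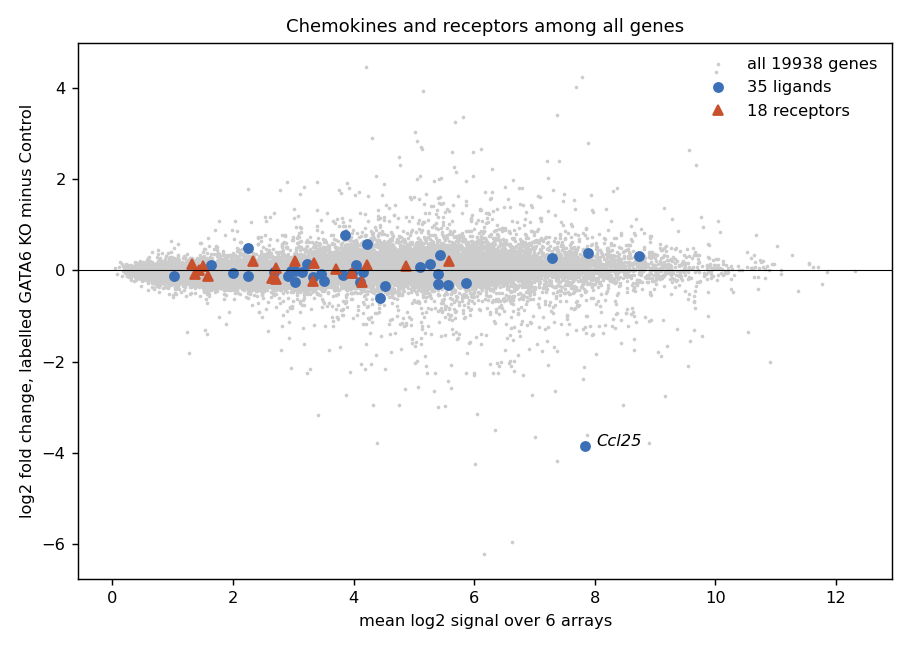
Log2 fold change (y axis, arrays labelled GATA6 KO minus Control) against mean log2 signal over 6 arrays (x axis) for 19938 genes (grey), with 35 chemokine ligands (blue circles) and 18 receptors (red triangles) marked. Ccl25 at -3.84 lies far below zero, with 4 genes lower, and the other members lie between -0.60 and 0.77.

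Many chemokine genes lie in tandem. In the RefSeq order of coding genes, 6 members on chromosome 11 (Ccl2, Ccl7, Ccl11, Ccl12, Ccl8 and Ccl1) follow each other, with log2 fold changes of -0.29 to 0.57. A second run of 5 there (Ccl5, Ccl9, Ccl6, Ccl3 and Ccl4) had a median of 0.31, and 4 of the 5 were above 0. On chromosome 5, Pf4, Cxcl3, Cxcl15, Cxcl1 and Cxcl2 ran from -0.26 to 0.49. On chromosome 9, Cxcr6, Xcr1, Ccr1, Ccr1l1, Ccr3 and Ccr2 follow each other, from -0.12 to 0.21. Ccl25 lies outside these runs, and the 3 other members on its chromosome, Ccl22, Cx3cl1 and Ccl17, lay at -0.28 to 0.13.

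The remaining members did not pass and had overlapping groups. Ccl17 and Ccl22, which share the receptor Ccr4, lay at -0.05 and 0.13, and Ccr4 at -0.20 (SE 0.11). Ccl1 and its receptor Ccr8 lay at -0.04 and 0.09, and the monocyte ligands Ccl3 and Ccl7 at 0.12 and -0.09. The eotaxins Ccl24 and Ccl26 lay at -0.14 and 0.11. Cxcl17, a mucosal chemokine, lay at -0.25 (SE 0.12, limma adjusted p = 0.244), and Cxcl3, Cxcl15 and the platelet chemokine Pf4 at -0.06, -0.12 and -0.04. Cxcr1, a neutrophil receptor, and Ccr1l1, a relative of Ccr1, lay at -0.18 and -0.12.

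Other genes of the pathway were read from lists. Of 12 enzymes that process or release chemokines 3 fell and none rose, beside 3.25% of all genes called lower and 4.99% called higher. Their median log2 fold change was 0.08. At an unadjusted p under 0.05 there were 8, against 24.7% of all genes. The groups did not overlap in 7, 4 lower and 3 higher, against 29.3% of all genes. Mmp7, a matrix metalloproteinase of Paneth cells, fell from 8.60 to 8.78 in controls to 5.82 to 6.37 (log2 fold change -2.65, SE 0.15, limma adjusted p = 3.36e-04). Dpp4, which trims the amino terminus of many chemokines, fell by 1.11 (SE 0.13), and Anpep, another aminopeptidase of the brush border, fell by 1.35 (SE 0.15). In each of the 3 every control lay above every KO-labelled array. Without moderation Anpep and Dpp4 lost the call (limma adjusted p 0.0664 and 0.0644). All 3 are genes of epithelial cells, and the list was drawn up with earlier results on them known. Adam17, which sheds Cx3cl1, lay at 0.31 (SE 0.10) and did not pass (limma adjusted p = 0.105).

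Of 21 genes of chemokine signal transduction Plcb3, a phospholipase, fell by 0.48 (SE 0.07) and Rgs13, a regulator of G protein signalling, rose by 1.76 (SE 0.34). That is 1 lower and 1 higher, beside 3.25% of all genes called lower and 4.99% called higher. At an unadjusted p under 0.05 there were 5 of the 21, against 24.7% of all genes. Plcb3 lost the call without GATA6 KO replicate 2 (limma adjusted p = 0.0536). Rgs13 read below the array medians in controls, so its size is uncertain, and lost the call without Control replicates 2 or 3 (0.0687 and 0.100) or GATA6 KO replicates 2 or 3 (0.0917 and 0.0673). Of 11 genes of gut homing none passed (3 at an unadjusted p under 0.05), and 10 had positive values. Of 10 atypical receptors and chemokine-like genes none passed (2 at an unadjusted p under 0.05).

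Of 16 measured inducers of chemokines Nfkb2 rose, by 0.33 (SE 0.07), but it did not pass in any of the 6 fits that left out 1 array (limma adjusted p 0.0572 to 0.113). Over all genes 4.99% were called higher. At an unadjusted p under 0.05 there were 5 of the 16, against 24.7% of all genes. Irf7, an interferon response factor, read 8.59, 8.07 and 8.78 in controls and 7.33, 8.00 and 7.78 in KO-labelled arrays. The groups did not overlap, and the log2 fold change of -0.78 (SE 0.22) did not pass (limma adjusted p = 0.0837). Tnf lay at 0.56 (SE 0.19, limma adjusted p = 0.131).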

How the data were processed

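Total RNA of whole ileum was hybridised to Affymetrix mouse Gene 1.0 ST arrays, 1 per mouse, per the labels' protocols. The values the authors deposited, 1 per probe set, were read as log2 from their range; the submitters' processing notes name Affymetrix Expression Console, and which background correction, normalization and summary it ran is not stated there. The number of arrays limits the precision.

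Of 35557 probe sets, 21789 have exactly 1 gene symbol in the platform table, 1621 have several and 12147 are not listed. The brightest probe set by mean over the 6 arrays stood for each of 19938 genes, with no filter on dim genes and no scaling. Genes were fitted with limma 3.58.1 (lmFit, eBayes) in R 4.3.3, GATA6 KO minus Control, two-sided, with Benjamini-Hochberg adjustment over all genes and a threshold of 0.05. No set test was run. The fit was tested on simulated arrays of these 19938 genes, with 200 genes changed and 5 simulations. It recovered 41.8% of changes of 0.5, 96.1% of changes of 1 and 99.7% of changes of 2 on the log2 scale. In the data 1643 genes were called, and recovery with that many changed genes was not simulated. All 53 members matched the RefSeq gene table of GRCm38.p6 by gene identifier, and no symbol changed. Members, lists and tests were chosen with earlier results of these data known. Members described array by array were those that passed, the 10 others with the smallest p, partners of those that passed and a fixed set of ligands and receptors; from other pathway lists up to 4 genes with the smallest p were eligible, and from cell type lists up to 2. Genes described outside this rule were chosen after their values were seen. Alternatives changed the scaling, the filter, the probe set, the moderation and the arrays used. Figures were drawn with matplotlib 3.10.9.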

Additional observations from a re-analysis of the deposited data

How the results depend on the processing

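Of the members other than Ccl25, 6 passed in at least 1 of 16 alternatives: Cxcl9 in 7, Ccl6 in 3, Cxcl5 in 2, and Ccl28, Cxcl10 and Cxcl2 in 1 each. Members called lower numbered 1 with all 6 arrays, 1 to 2 without 1 array, and 2 with arrays centred on their medians, quantile normalization, dim genes left out, eBayes with trend and robust, or array weights, but 0 without moderation. Members called higher numbered 0, then 0 to 2 without 1 array, 2 with dim genes left out, and 1 with eBayes with trend and robust or with arrays centred over all probe sets, an alternative chosen after seeing the data. The dim filter left 20 of 53 members. The cause was not tested.

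Over all genes, 995 were higher and 648 lower. Centring arrays over genes gave 824 and 863, and over all probe sets 1562 and 565, with the median of all genes at -0.05 and 0.05. Without moderation 168 and 106 were called, with each probe set on its own 491 and 406, and without 1 array 320 to 806 and 277 to 597. Over all genes, same-numbered replicates deviated from their group means with correlations of 0.04, -0.04 and 0.15. Only replicate 3 was matched best by its own number. Whether the numbers mark shared handling is not known here, and low correlations over all genes do not settle it for single genes. With the numbers as a replicate block 1 member was higher (Cxcl5, limma adjusted p = 0.0252) and 2 lower, and 766 and 475 genes.

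Of all 53 members, 19 with values near 0 changed sign in at least 1 alternative, each with a limma adjusted p of 0.294 or more there. Of these, 12 (Ccl1, Ccl2, Ccl3, Ccl12, Ccl17, Ccl22, Ccl24, Ccl26, Ccr1, Ccr1l1, Cxcl3 and Pf4) went from between -0.14 and 0.13 to between -0.06 and 0.19, and the other 7 are given here. Fits without 1 array gave -0.15 to 0.023 for Ccl19 (0.023 without GATA6 KO replicate 2 and 0.011 without the first control), -0.32 to 0.026 for Ccl20 and -0.13 to 0.034 for Ccr10 (both above 0 without Control replicate 3), and -0.0053 to 0.20 for Cx3cr1 (below 0 without Control replicate 1). They gave -0.23 to 0.28 for Cxcl13 (-0.23 and -0.043 without Control replicate 3 and GATA6 KO replicate 1), which was at -0.00014 with quantile normalization. For Cxcr2 they gave -0.22 to 0.14 (-0.22 without Control replicate 2, -0.086 and -0.030 without the first and second GATA6 KO replicate), beside -0.047 with centred arrays and -0.092 with array weights. For Cxcr6 they gave -0.042 to 0.10 (-0.017 and -0.042 without the second replicate of Control and of GATA6 KO), beside -0.0097 with centred arrays. Signal limits the 19 members below the array medians on each array.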
